A study of Mus musculus with 51 samples.

Results

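The genes described here were 10 regulators and effectors of endoplasmic reticulum (ER) stress and of the secretory pathway, selected by name: Hspa5, Hsp90b1, Sdf2l1, Dnajb9, Herpud1, Xbp1, Atf4, Ddit3, Trib3 and Creb3l1. All 10 were present among the 23358 entries measured in femurs of Gulo mice and among the 25938 genes measured in femurs of Tet mice. All 10 also passed the filter on low values in both experiments, which left 12586 and 16780 genes for testing. Trib3 passed it in the Gulo experiment only through the VitC+/- group, the one in which all 3 libraries reached an RPKM of 1. The question was whether loss of vitamin C (VitC), the cofactor of collagen hydroxylation, goes with an ER stress response in bone.

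Bulk RNA-seq of femoral bone, flushed of marrow and stripped of periosteum, gave 21 of the 51 samples of the study, with 3 libraries per group. Mice homozygous for the Gulo tm1Mae allele cannot make VitC and received it at 3.3 g/L in the drinking water. The VitC+ group had it for all 20 weeks of life, the VitC+/- group for 15 weeks followed by 5 weeks without it, and the WT group consisted of wild type mice of the same age. In the second experiment the mice were 11 weeks old and all of them carried Prrx1-Cre, a Cre transgene driven by a limb mesenchyme promoter. Ctrl mice had no floxed Tet allele, while Tet1 cKO, Tet2 cKO and Tet1/2 cKO mice carried floxed Tet1, floxed Tet2 or both on both chromosomes. Prrx1-Cre leaves the Tet genes of blood and osteoclast cells in the femur intact.

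Proteins that enter the ER are folded there by chaperones, and unfolded protein is sensed by IRE1 (Ern1), PERK (Eif2ak3) and ATF6. IRE1 splices the Xbp1 mRNA, PERK raises the translation of Atf4, and ATF6 is cut to release a transcription factor, and together these arms raise chaperones, degradation factors and, under lasting stress, Ddit3 and Trib3. Osteoblasts secrete large amounts of type I collagen, and Creb3l1 (OASIS) is an ER-bound transcription factor that acts on collagen genes in bone. The values used here are per gene, so spliced Xbp1 mRNA and the translation of Atf4 were not measured.

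Levels in the Gulo experiment are given as scaled RPKM, that is RPKM divided by a median-of-ratios factor of each library, and they may be compared between genes since RPKM is per length. Library depth, recovered from the steps between low RPKM values, was 7.56 M reads for WT replicate 1 and 31.0 to 47.3 M reads for the other Gulo libraries. Gulo itself, the inactivated gene, had 0.537 and 0.442 scaled RPKM in WT replicates 1 and 2 and was listed at 0 in WT replicate 3, against 0.0268 to 0.238 in VitC+ and 0.0123 to 0.0177 in VitC+/- libraries. Bone is a mixed tissue, and in bulk RNA fewer cells of a type and less RNA per cell cannot be told apart. Between VitC+ and VitC+/- libraries, 4 of 10 osteoblast and osteocyte markers fell and none rose, with summed levels of 2079 to 4452 and 436 to 1536 scaled RPKM. Of the osteoclast markers 3 of 7 rose, from sums of 1862 to 2557 to sums of 2912 to 6454. In WT libraries the sums were 339 to 1867 for osteoblast and osteocyte markers and 779 to 852 for osteoclast markers. Between VitC+ and VitC+/- libraries, 7.52% of all genes tested passed the threshold as lower and 5.93% as higher. B-cell precursor markers fell in 7 of 8 cases, plasma cell markers in 3 of 8 with 1 rising, and neutrophil markers in 2 of 9. Among tested markers of other cells, 1 of 6 erythroid markers rose, 1 of 4 chondrocyte markers fell, and 0 of 7 adipocyte and 0 of 7 skeletal muscle markers passed the threshold. Every marker of the first 5 lists that was found in the data was above 0 in all 9 libraries. The part of these shifts in cell markers in the results below was not tested.

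After VitC withdrawal, Trib3 was above both other groups in each of its 3 libraries, with a call that depended on the filter on low values and on single libraries, and none of the ER chaperones among the 10 genes passed as higher. In VitC+/- against VitC+ femurs, 1 of the 10 genes, Trib3, passed the threshold (limma, adjusted p under 0.05) as higher and 0 as lower, where 5.93% of all genes tested passed as higher and 7.52% as lower, 13.4% in all. The unadjusted p was under 0.05 for 2 of the 10 genes and for 31.3% of all genes. Libraries of both groups did not overlap for 2 of the 10 genes, 1 in each direction, where this was so for 40.5% of all genes, 21.4% as higher and 19.1% as lower. The log2 fold change was above 0 for 2 genes and below 0 for 8, with a median of -0.19, against a median of 0.02 over all genes tested.

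**Figure D1:**
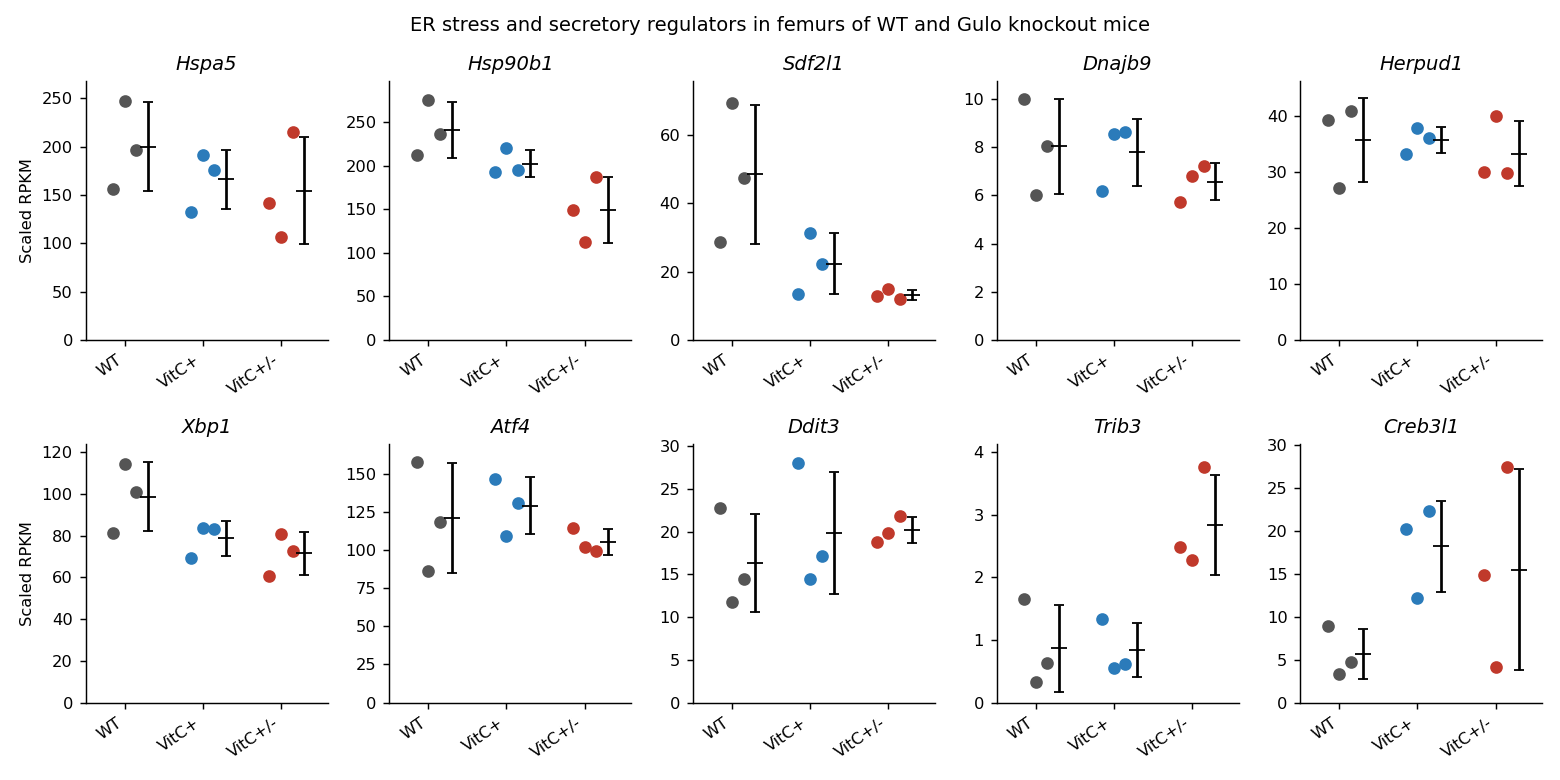
Scaled RPKM (linear axis from 0) of the 10 genes in the 9 femur libraries of the Gulo experiment, with 1 point per library and the mean ± SD of the 3 libraries of each group as a bar. Trib3 lay between 2.28 and 3.76 in VitC+/- libraries and at or below 1.65 in all others, and Sdf2l1 had its lowest 2 values and its smallest spread in VitC+/- libraries.

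Hspa5 (chr2:34772090-34776529, plus strand, GRCm38.p6 as all positions here) encodes BiP, the main HSP70 chaperone of the ER lumen and the most used reporter of ER stress. Its level was 132, 191 and 176 scaled RPKM in VitC+ libraries, 142, 106 and 215 in VitC+/- libraries and 157, 248 and 196 in WT libraries. The VitC+/- libraries held both the lowest and the second highest of the 9 values, and all groups overlapped. The log2 fold change of VitC+/- against VitC+ was -0.15 ± 0.27 (SE, n = 3 per group) with a 95% interval of -0.77 to 0.46 and an adjusted p of 0.743 (limma). Changes within this interval, in either direction, could not be told from 0.

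Hsp90b1 (chr10:86690841-86705444, minus strand) encodes GRP94, the HSP90 chaperone of the ER. It was at 193, 220 and 195 scaled RPKM in VitC+ libraries, at 149, 112 and 187 in VitC+/- libraries and at 212, 275 and 237 in WT libraries. All 3 VitC+/- libraries lay below all libraries of both other groups. Against VitC+ the log2 fold change was -0.47 ± 0.20 (SE) with an interval of -0.91 to -0.03, and the adjusted p of 0.137 (limma) was not past the threshold. Against WT, Hsp90b1 fell by 0.71 ± 0.20 on the log2 scale (adjusted p = 0.0227, limma), and this call was lost when VitC+/- replicate 1 or 2 or WT replicate 2 or 3 was left out, with adjusted p-values of 0.0549 to 0.0672. It was also lost without scaling of libraries (adjusted p = 0.0786) and in a limma fit of these 2 groups alone (adjusted p = 0.0572).

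Sdf2l1 (chr16:17130138-17132383, minus strand) encodes a partner of the BiP chaperone cycle and is a known target of the unfolded protein response. Its 3 VitC+/- libraries had 12.8, 14.8 and 12.1 scaled RPKM, its VitC+ libraries 13.6, 31.3 and 22.1 and its WT libraries 28.8, 69.4 and 47.4. Each WT library was above each VitC+/- library, whereas VitC+ replicate 1 lay within the VitC+/- range. In VitC+/- against WT, Sdf2l1 fell by 1.75 ± 0.35 (SE) on the log2 scale, with an interval of -2.53 to -0.98 and an adjusted p of 0.0060 (limma), and the call held in all 12 alternative fits. Against VitC+ the log2 fold change was -0.66 ± 0.35 (interval -1.43 to 0.12, adjusted p = 0.227, limma).

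Plasma cells, which secrete antibodies, are rich in ER chaperones. Summed plasma cell markers were 125 to 274 scaled RPKM in WT, 188 to 253 in VitC+ and 95.1 to 176 in VitC+/- libraries, and 4 of 8 were lower and 2 higher in VitC+/- than in WT. Of all genes tested, 15.9% passed the threshold as lower and 15.3% as higher in this comparison. Neutrophil markers, 9 of 9 of them lower in VitC+/- than in WT, summed to 52229 to 73872 in WT, 29193 to 46438 in VitC+ and 7063 to 23692 in VitC+/- libraries. Their part in the differences of Hsp90b1 and Sdf2l1 was not tested.

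Dnajb9 (chr12:44205897-44210068, minus strand), which encodes the BiP co-chaperone ERdj4, and Herpud1 (chr8:94386429-94395371, plus strand), a membrane component of ER-associated degradation, did not pass the threshold in any comparison. Dnajb9 was at 6.19, 8.53 and 8.62 scaled RPKM in VitC+ libraries, at 5.72, 6.78 and 7.20 in VitC+/- and at 10.0, 6.02 and 8.06 in WT libraries. Herpud1 was at 33.3, 37.9 and 36.0 in VitC+ libraries, at 30.1, 40.0 and 29.9 in VitC+/- and at 39.3, 27.2 and 40.9 in WT libraries. The groups overlapped for both genes. The intervals of the log2 fold change of VitC+/- against VitC+ were -0.69 to 0.24 for Dnajb9 and -0.52 to 0.30 for Herpud1.

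Promoter sequences of 9 of the 10 genes were found in the RefSeq promoter table of GRCm38.p6, which covers 250 bases before to 50 bases after each start site and holds 27025 promoters. Creb3l1 was not in this table. The sequences of Hspa5, Hsp90b1 and Herpud1 are shown since these promoters hold the textbook elements of the unfolded protein response, and since Hspa5 and Hsp90b1 had similar patterns over libraries. They are written 5′ to 3′ on the gene's strand and end at the last base before the start site. Capitals mark matches, on either strand, to the ER stress response element ERSE (CCAAT and CCACG with 9 bases of any kind between them), the related element ERSE-II (ATTGG and CCACG with 1 base of any kind between them) or the C/EBP-ATF response element CARE (TGATGNAA).
Hspa5, chr2:34771840-34772089, plus strand: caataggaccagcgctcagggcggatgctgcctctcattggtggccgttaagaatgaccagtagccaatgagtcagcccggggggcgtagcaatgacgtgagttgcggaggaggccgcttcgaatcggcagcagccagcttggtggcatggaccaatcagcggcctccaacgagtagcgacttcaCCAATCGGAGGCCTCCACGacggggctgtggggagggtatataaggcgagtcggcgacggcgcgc
Hsp90b1, chr10:86705445-86705694, minus strand: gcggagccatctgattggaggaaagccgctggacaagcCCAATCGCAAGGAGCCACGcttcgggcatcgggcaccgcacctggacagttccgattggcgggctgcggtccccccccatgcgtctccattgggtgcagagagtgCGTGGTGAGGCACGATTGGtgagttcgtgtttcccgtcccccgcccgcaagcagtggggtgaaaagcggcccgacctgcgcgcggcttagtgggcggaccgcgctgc
Herpud1, chr8:94386179-94386428, plus strand: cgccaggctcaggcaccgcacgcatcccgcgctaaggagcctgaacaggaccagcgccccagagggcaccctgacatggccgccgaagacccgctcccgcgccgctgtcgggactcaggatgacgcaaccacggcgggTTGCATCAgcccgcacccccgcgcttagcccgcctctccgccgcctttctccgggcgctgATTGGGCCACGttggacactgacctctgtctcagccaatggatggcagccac
Trib3, chr2:152344028-152344057, minus strand: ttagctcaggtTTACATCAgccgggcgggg
The stretch of Trib3 covers 30 bases just after its start site and is shown for a CARE match on the opposite strand, since Trib3 is a textbook target of ATF4 and CHOP.

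Of all promoters, 0.130% held the ERSE, and it was found in 2 of 9 promoters here, those of Hspa5 and Hsp90b1, the latter with 1 match on each strand. The ERSE-II was in 0.0370% of all promoters and in Herpud1 among the genes here. The CARE was in 4.06% of all promoters, and here in Herpud1 and Trib3, on the opposite strand in both. The element UPRE (TGACGTGG) was in 0.607% of all promoters and in none of the 9. No 2 of the matches shown share bases. Among other ER chaperones and folding enzymes, 6 of 18 promoters held the ERSE, and among targets of ATF4 and CHOP 5 of 18 held the CARE. A match to these letters is a description of the sequence and not evidence of binding.

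Xbp1 (chr11:5520641-5525993, plus strand) and Atf4 (chr15:80255184-80257545, plus strand) encode transcription factors of the IRE1 and PERK arms. Xbp1 was at 69.1, 83.6 and 83.2 scaled RPKM in VitC+ libraries, at 60.7, 80.9 and 72.5 in VitC+/- and at 81.0, 114 and 101 in WT libraries. The WT libraries were all above the VitC+/- libraries, by 81.0 to 80.9 at the closest pair, with a log2 fold change of -0.46 and an adjusted p of 0.0670 (limma), which became 0.0269 without WT replicate 1 and 0.0207 with a replicate block. Atf4 mRNA was at 147, 109 and 131 in VitC+ libraries, at 115, 102 and 99.0 in VitC+/- and at 158, 86.4 and 118 in WT libraries, with overlap of all groups. In VitC+/- against VitC+, the intervals were -0.53 to 0.24 for Xbp1 and -0.77 to 0.19 for Atf4.

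Ddit3 (chr10:127290793-127296291, plus strand) encodes CHOP, a transcription factor of prolonged ER stress that acts with ATF4. It had 28.0, 14.4 and 17.1 scaled RPKM in VitC+ libraries, 18.8, 19.8 and 21.8 in VitC+/- libraries and 22.8, 11.7 and 14.5 in WT libraries. VitC+/- libraries lay close together within the range of the other groups, and the first replicate of VitC+ and of WT was above the other two of its group. The log2 fold change was 0.08 ± 0.28 (SE; interval -0.55 to 0.70, adjusted p = 0.878, limma) against VitC+ and 0.34 against WT.

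Trib3 (chr2:152337425-152344060, minus strand) encodes a pseudokinase that is induced by ATF4 and CHOP and binds AKT. Among the 10 genes it had the lowest level, with 1.33, 0.554 and 0.620 scaled RPKM in VitC+ libraries, 2.48, 2.28 and 3.76 in VitC+/- libraries and 1.65, 0.325 and 0.633 in WT libraries. These levels correspond to about 44.6 to 70.8, 153 to 382 and 24.8 to 49.6 reads in the 3 groups in this order. All VitC+/- libraries were above all others. On the log2(scaled RPKM + 0.5) scale the difference from VitC+ was 1.34 ± 0.37 (SE; interval 0.50 to 2.18, adjusted p = 0.0454, limma), larger in size than that of 95.7% of genes tested. Against WT it was 1.38 ± 0.37 (adjusted p = 0.0219, limma). As deposited, Trib3 reached an RPKM of 1 in all 3 VitC+/- libraries and otherwise only in replicate 1 of VitC+ and of WT, so it entered the test through the group in which it was high.

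The Trib3 call against VitC+ was close to the threshold and was lost in all 6 fits without 1 of the VitC+ or VitC+/- libraries, with a log2 fold change of 1.15 to 1.61 and adjusted p-values of 0.0565 to 0.138 (limma). It was also lost with a pseudocount of 0.1 (adjusted p = 0.0610) and without a filter on low values (adjusted p = 0.0724). Against WT the call was lost without VitC+/- replicate 1 or 3 or WT replicate 2 or 3, with adjusted p-values of up to 0.0732.

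Creb3l1 (chr2:91982328-92024170, minus strand) had the widest spread of the 10 genes within VitC+/- libraries, with an SD of 1.31 on the log2 scale. It was at 20.1, 12.2 and 22.3 scaled RPKM in VitC+ libraries, at 14.8, 4.19 and 27.4 in VitC+/- and at 8.93, 3.37 and 4.75 in WT libraries. VitC+/- libraries held the highest and the second lowest of the 9 values, and the WT libraries were all below the VitC+ libraries. The log2 fold change of VitC+/- against VitC+ was -0.52 ± 0.59 (SE; interval -1.84 to 0.79, adjusted p = 0.583, limma) and turned to 0.19 without VitC+/- replicate 2. Against WT it was 1.13 (adjusted p = 0.167, limma) and passed the threshold without that library, at 1.85 (adjusted p = 0.0129). In the same VitC+/- libraries, a list of 13 genes of collagen synthesis and hydroxylation summed to 1474, 415 and 3627 scaled RPKM and the osteoblast and osteocyte markers to 1173, 436 and 1536, both lowest in replicate 2 and highest in replicate 3 as for Creb3l1.

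**Figure D2:**
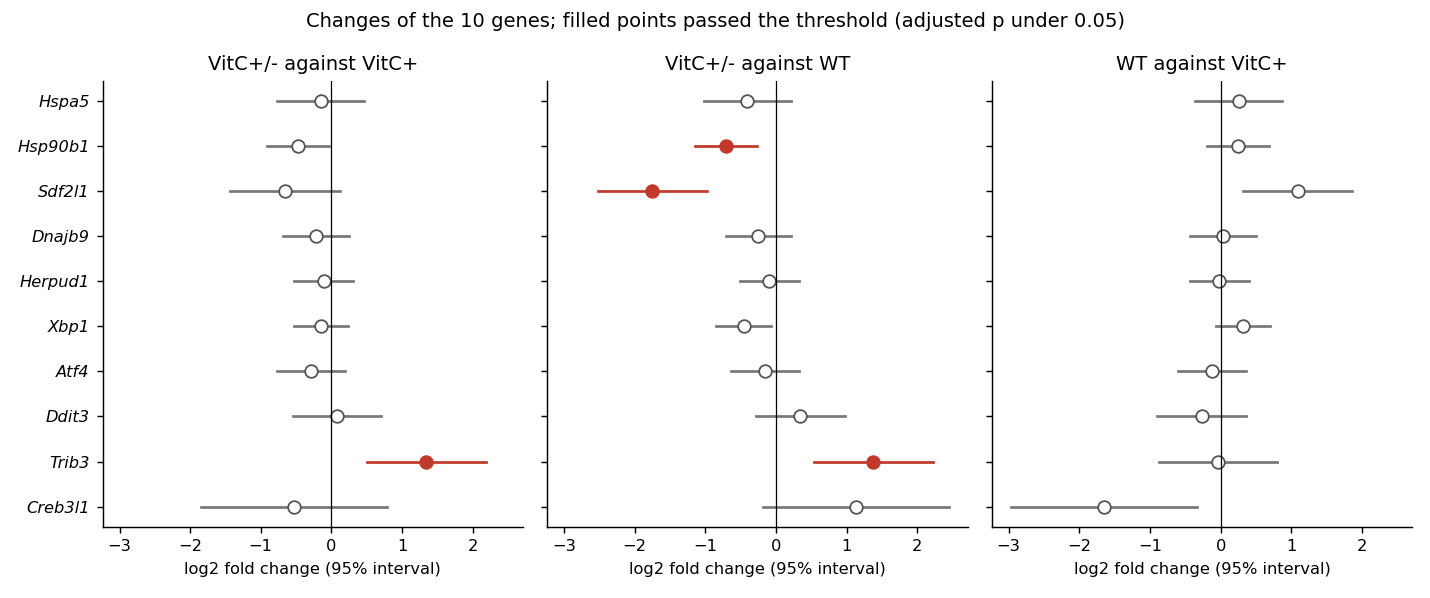
Log2 fold changes of the 10 genes with 95% intervals (limma, 3 libraries per group) in the 3 comparisons of the Gulo experiment, filled where the adjusted p was under 0.05. Trib3 is above 0 in VitC+/- against VitC+ (1.34) and against WT (1.38), but met the filter on low values only through the VitC+/- group. Sdf2l1 (-1.75) and Hsp90b1 (-0.71) are below 0 in VitC+/- against WT, and no gene is filled in WT against VitC+.

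In VitC+/- against WT femurs, 1 of the 10 genes passed as higher (Trib3) and 2 as lower (Hsp90b1 and Sdf2l1). Of all genes tested, 15.3% passed as higher and 15.9% as lower, 31.3% in all. Trib3 met the filter on low values only through the VitC+/- group, in which it was high, so its call is not independent of that filter. The unadjusted p was under 0.05 for 4 of the 10 and for 43.8% of all genes. Libraries of both groups did not overlap for the same 4 genes, 1 higher and 3 lower, compared with 42.7% of all genes, 21.4% as higher and 21.3% as lower. The median log2 fold change was -0.21, against 0.01 over all genes tested. This comparison shares the VitC+/- libraries with that against VitC+, so the values of both are not independent. VitC supply and genotype cannot be told apart here, since WT mice make their own VitC.

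In WT against VitC+ femurs, 0 of the 10 genes and 0 of all genes tested passed the threshold (limma), and 2 of the 10 and 22.0% of all genes had an unadjusted p under 0.05. Creb3l1 was lower in WT without overlap of the libraries, which held for 28.7% of all genes, 14.2% as higher and 14.5% as lower, with a log2 fold change of -1.65 ± 0.59 (SE; adjusted p = 0.156, limma). For Sdf2l1 it was 1.09 ± 0.35 (adjusted p = 0.133, limma), and without WT replicate 1, the shallow library, the adjusted p became 0.0459.

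Other genes of the pathway were taken from lists by function. Among 9 sensors and ER-bound transcription factors, including Ern1, Eif2ak3 and Atf6, 0 passed in VitC+/- against VitC+ (1 with an unadjusted p under 0.05), with a median log2 fold change of 0.30. Of 21 ER chaperones and folding enzymes, 0 were higher and 3 lower, with a median of -0.18, where 7.52% of all genes were lower. Of 12 tested genes of ER-associated degradation and 19 of ER to Golgi transport, 0 passed (3 and 1 with an unadjusted p under 0.05), with medians of -0.06 and -0.02. The unadjusted p was under 0.05 for 31.3% of all genes tested. Of 19 tested targets of ATF4 and CHOP, 5 were higher and 0 lower, with a median of 0.31, where 5.93% of all genes were higher and the median of all genes was 0.02.

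**Figure D3:**
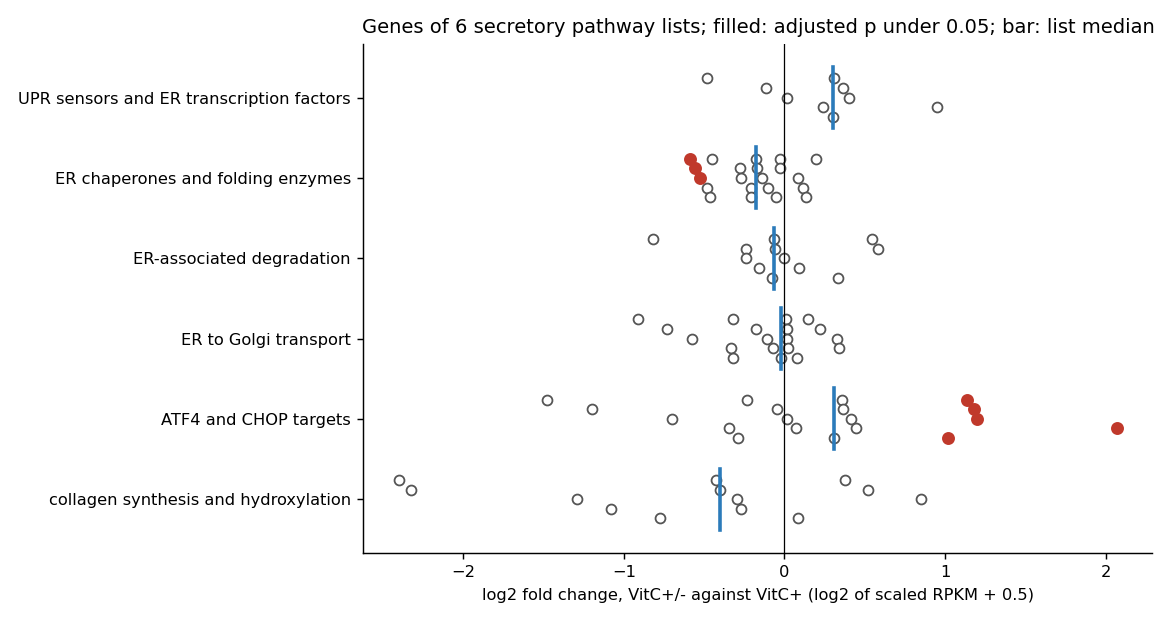
Log2 fold change of VitC+/- against VitC+ for each tested gene of 6 secretory pathway lists that exclude the 10 genes, filled where the adjusted p was under 0.05 (limma), with a bar at the median of each list. The 3 filled chaperones (Manf, Creld2, Fkbp2) lie between -0.59 and -0.52 and the 5 filled targets of ATF4 and CHOP between 1.02 and 2.07.

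The 3 chaperone genes that fell were Manf, an ER stress-inducible secreted factor, Creld2, an ER protein with thioredoxin-like activity, and Fkbp2, an ER prolyl isomerase. Manf was at 39.5, 53.2 and 45.2 scaled RPKM in VitC+ and 31.3, 25.5 and 34.4 in VitC+/- libraries (log2 fold change -0.59 ± 0.17 SE, adjusted p = 0.0467, limma). Creld2 was at 19.3, 26.4 and 24.0 against 15.3, 14.8 and 16.4 (-0.56 ± 0.14, adjusted p = 0.0314, limma), and Fkbp2 at 46.7, 56.1 and 48.8 against 38.6, 32.3 and 34.1 (-0.52 ± 0.15, adjusted p = 0.0458, limma). For each of the 3, picked for passing the threshold, no VitC+/- library reached a VitC+ library, where 19.1% of all genes were lower without overlap. Over 12 alternative fits Manf passed in 4, Creld2 in 7 and Fkbp2 in 3. None of the calls held on RPKM as deposited, without scaling of libraries, where adjusted p-values were 0.249 to 0.275 (limma) and the median of all genes moved from 0.02 to 0.13.

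The targets of ATF4 and CHOP that rose were Ddit4, an inhibitor of mTORC1, Ppp1r15a (GADD34), which restores translation after stress, Sesn2, a leucine sensor, and Slc7a5 and Slc3a2, the light and heavy chain of an amino acid transporter. Slc3a2 is named beyond the 4 genes per list of the naming rule, after its values were seen. Ddit4 was at 38.3, 16.8 and 20.7 scaled RPKM in VitC+ and 87.7, 121 and 97.6 in VitC+/- libraries, a log2 fold change of 2.07 ± 0.48 (SE, adjusted p = 0.0259, limma). Ppp1r15a was at 25.3, 16.9 and 25.8 against 54.6, 66.3 and 38.6 (1.20 ± 0.23, adjusted p = 0.0121, limma).

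Slc7a5 was at 10.4, 9.20 and 9.19 scaled RPKM in VitC+ and 22.1, 17.3 and 26.6 in VitC+/- libraries (1.14 ± 0.21, adjusted p = 0.0111, limma). Slc3a2 was at 23.0, 18.1 and 20.5 against 37.9, 43.0 and 45.1 (1.02 ± 0.14, adjusted p = 0.0039, limma), and Sesn2 at 1.84, 2.26 and 2.36 against 3.17, 8.42 and 6.05 (1.18 ± 0.33, adjusted p = 0.0471, limma). The libraries of the groups did not overlap for any of these 5 genes, where 21.4% of all genes were higher without overlap. The 5 genes had been picked for passing the threshold, so this is a description only. Over 12 alternative fits, Slc3a2 and Slc7a5 passed in all 12, Ppp1r15a in 11, Ddit4 in 7 and Sesn2 in 4. The other 14 targets tested did not pass, among them Asns (log2 fold change 0.44), Chac1 (0.31), Atf3 (0.01) and Nupr1 (-1.48, adjusted p = 0.0586, limma), which are named after their values were seen. Against WT, 6 of the 19 were higher and 2 lower and 7 of the 21 chaperones were lower, with 0 higher, where 15.3% of all genes were higher and 15.9% lower.

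Collagen genes varied widely within VitC+/- femurs. Col1a1 was at 2307, 1326 and 2881 scaled RPKM in VitC+, at 510.4, 101 and 1358 in VitC+/- and at 653, 319.5 and 478 in WT libraries, and its log2 fold change of -2.32 against VitC+ had an adjusted p of 0.0770 (limma). Of the 13 genes of collagen synthesis and hydroxylation, 0 passed in this comparison. The unadjusted p was under 0.05 for 2 of them and for 31.3% of all genes tested. Log2 fold changes were -2.40 for Col1a2, -1.29 for the collagen chaperone Serpinh1, -1.08 for Plod2 and -0.40 for P4ha1. These values rested on single libraries: without VitC+/- replicate 2 they were -1.31 for Col1a1, -1.56 for Col1a2, -0.52 for Serpinh1, -0.39 for Plod2 and 0.18 for P4ha1. Without VitC+/- replicate 3, Col1a1, Col1a2 and Serpinh1 passed the threshold (adjusted p = 0.0219, 0.0249 and 0.0493, limma). In VitC+/- against WT the log2 fold changes were -0.17 for Col1a1, -0.37 for Col1a2, 0.15 for Serpinh1, 0.56 for Plod2 and 0.48 for P4ha1. For each of these genes VitC+/- and WT libraries overlapped. In WT against VitC+ they were -2.15, -2.03, -1.44, -1.64 and -0.88 in this order, without overlap and with none past the threshold (limma). Hydroxylation of the collagen protein was not measured in these libraries.

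In the Tet experiment, levels are normalized counts, which are not per length and cannot be set against the scaled RPKM. The libraries held 28.6 to 49.8 M reads. Gene-level counts of Tet1 and Tet2 did not mark the labelled knockouts. They are summed over all exons and all cells of the femur, and the loss of the floxed exons was not tested. Tet1 was at 374 to 435 in Ctrl, 532 to 773 in Tet1 cKO, 349 to 691 in Tet2 cKO and 415 to 485 in Tet1/2 cKO libraries, and Tet2 at 2236 to 2512, 2433 to 2584, 1834 to 2245 and 1851 to 2970 in this order.

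None of the 10 genes passed the threshold in any of the 3 Tet comparisons, nor by edgeR or DESeq2 on recovered reads, which called 0, 1 and 0 and 15, 15 and 14 genes for Tet1 cKO, Tet2 cKO and Tet1/2 cKO. For Tet1 cKO and Tet2 cKO against Ctrl, 2 genes each or 0.0119% of all genes passed, and for Tet1/2 cKO against Ctrl 0 genes passed (limma), with an unadjusted p under 0.05 for 5.05% of all genes. Among the 10 genes 0, 0 and 1 had an unadjusted p under 0.05 in the 3 comparisons, the last being Creb3l1, where 2.28% and 2.19% of all genes had one in Tet1 cKO and Tet2 cKO. Libraries did not overlap with Ctrl for Atf4 in Tet1 cKO, which was higher (7.82% of all genes, 4.28% as higher and 3.54% as lower). The same was so for Hsp90b1 and Xbp1 in Tet2 cKO, both lower (5.97% of all genes, 2.54% as higher and 3.43% as lower), and for Creb3l1 in Tet1/2 cKO, which was lower (17.4% of all genes, 7.37% as higher and 10.0% as lower). The median log2 fold change of the 10 genes was 0.22 in Tet1 cKO, -0.14 in Tet2 cKO and -0.00011 in Tet1/2 cKO, where the median of all genes was -0.0087, -0.01 and -0.0072. The 3 comparisons share the Ctrl libraries.

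**Figure D4:**
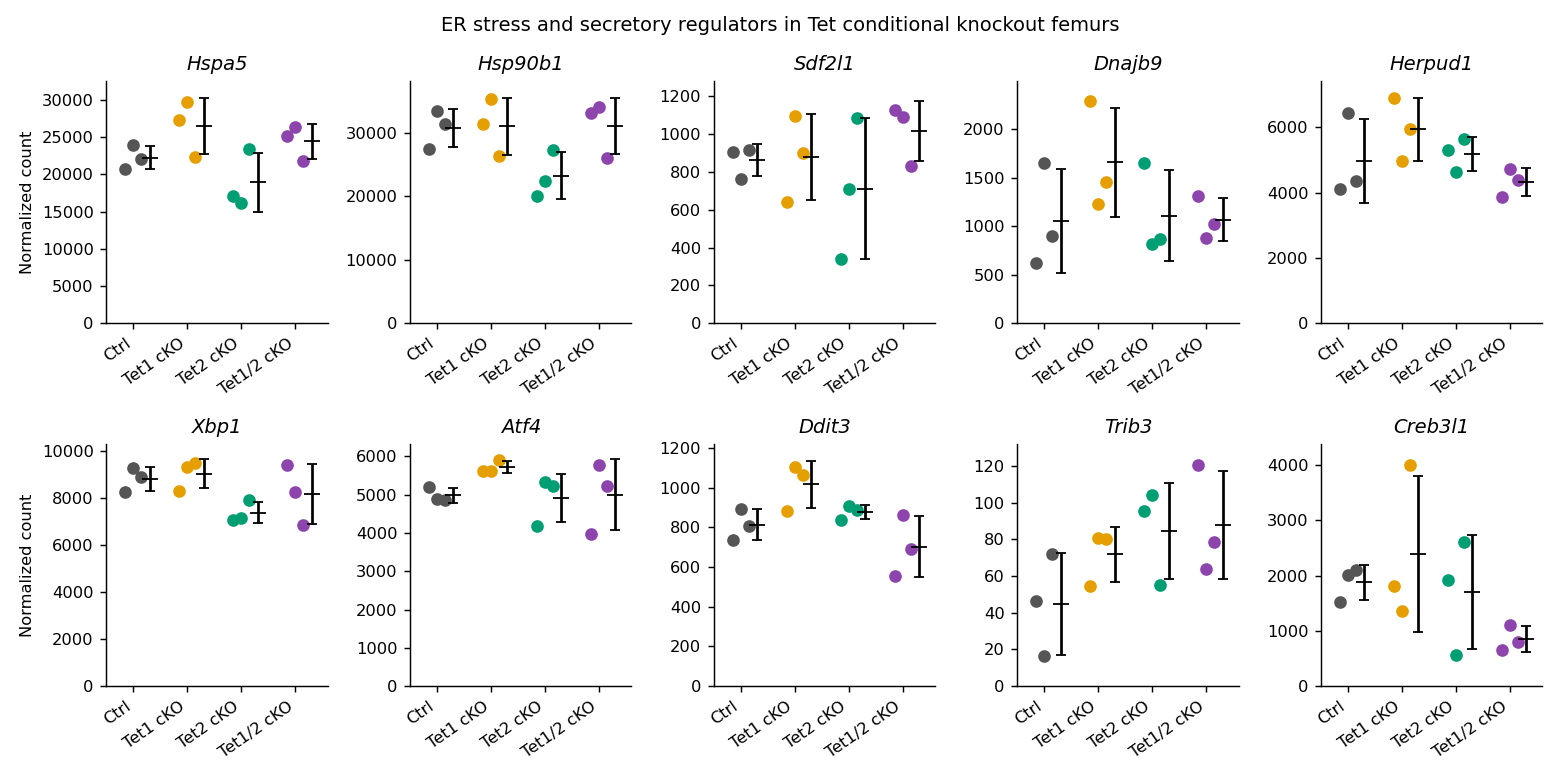
Normalized counts (linear axis from 0) of the 10 genes in the 12 femur libraries of the Tet experiment, with 1 point per library and the mean ± SD of the 3 libraries of each group as a bar. Creb3l1 in Tet1/2 cKO libraries (646 to 1114) lies below all Ctrl libraries (1523 to 2112), and the groups overlap for most other genes.

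Creb3l1 had normalized counts of 1523, 2012 and 2112 in Ctrl, 1815, 1363 and 4009 in Tet1 cKO, 1917, 571 and 2605 in Tet2 cKO and 646, 1114 and 796 in Tet1/2 cKO libraries. The Tet1/2 cKO libraries were all below Ctrl, while the single knockouts spanned both sides. The log2 fold change of Tet1/2 cKO against Ctrl was -1.16 ± 0.53 (SE; interval -2.32 to -0.01, adjusted p = 0.723, limma). Of the 13 genes of the collagen list 0 passed in this comparison. The unadjusted p was under 0.05 for 5 of them and for 5.05% of all genes tested (limma). Of the 13 genes 12 had a log2 fold change below 0, such as -1.30 for Col1a1 and -1.25 for Serpinh1 (adjusted p = 0.723 for both, limma). The unadjusted p was 0.152 for Col1a1 and 0.0334 for Serpinh1 (limma). The share of all genes below 0 is not given here, and their median was -0.0072. Summed osteoblast and osteocyte markers were 68419 to 116953 normalized counts in Ctrl and 29884 to 57208 in Tet1/2 cKO libraries. They were 71078 to 149982 in Tet1 cKO and 31860 to 137083 in Tet2 cKO libraries. Skeletal muscle markers summed to 93745 to 423948 in Ctrl and 2584 to 360900 in Tet1/2 cKO libraries. The part of these markers in the differences of Creb3l1 and collagen genes was not tested.

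Trib3 had 46.5, 16.3 and 71.9 normalized counts in Ctrl, 54.6, 80.6 and 80.3 in Tet1 cKO, 95.2, 104 and 55.0 in Tet2 cKO and 121, 63.9 and 78.7 in Tet1/2 cKO libraries. Ctrl replicate 2 was lowest of all 12 and each knockout group overlapped Ctrl. Log2 fold changes were 0.87, 1.08 and 1.13, all with SE 0.54, and intervals that include 0 in each case. Without Ctrl replicate 2 they were 0.28, 0.49 and 0.54.

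Hspa5 was at 20746 to 23875 normalized counts in Ctrl, 22369 to 29675 in Tet1 cKO, 16201 to 23387 in Tet2 cKO and 21783 to 26374 in Tet1/2 cKO libraries. Hsp90b1 was at 27421 to 33411 in Ctrl, and all 3 Tet2 cKO libraries were lower, at 20004, 22467 and 27219, with a log2 fold change of -0.41 (interval -0.88 to 0.06, adjusted p = 1.00, limma). Xbp1 was at 8253 to 9297 in Ctrl and at 7086, 7165 and 7914 in Tet2 cKO libraries, a log2 fold change of -0.26. For Ddit3, Herpud1, Dnajb9 and Sdf2l1 each group overlapped Ctrl, and Dnajb9 ranged from 618 to 1654 within Ctrl alone.

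Across libraries, some of the 10 genes had similar patterns, described here without a test since libraries of a group share their condition. Pearson's r of log2 levels was 0.84 for Hspa5 and Hsp90b1 over the 9 Gulo libraries and 0.90 over the 12 Tet libraries, and 0.69 in both for Dnajb9 and Herpud1. For Xbp1 and Sdf2l1 it was 0.92 and 0.53. Trib3 and Sdf2l1 had -0.83 over the Gulo libraries and -0.03 over the Tet libraries.

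Among all tested genes, those most like Hspa5 over the 9 Gulo libraries were Cltc (0.98), the ER oxidoreductase partner Erp44 (0.97), the oligosaccharyltransferase subunit Stt3a (0.96), Eef1e1 (0.96) and the Golgi enzyme Mgat2 (0.95), with r of 0.08 to 0.59 over the Tet libraries. Those most like Creb3l1 were Ppic, Maged1, Lepre1 (the collagen prolyl 3-hydroxylase P3h1), Pamr1 and Htra1, with r of 0.98 to 0.99 over Gulo libraries and, in the Tet libraries, 0.92 for Ppic, 0.96 for Maged1, 0.98 for Lepre1, 0.30 for Pamr1 and 0.66 for Htra1. For Ddit3 they were Igf2, Fibp, Gnl1, Pelo and Adamtsl5, with 0.94 to 0.96 over Gulo and -0.02 to 0.64 over Tet libraries.

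5-hydroxymethylcytosine (5hmC), the product of TET enzymes, which use VitC, was mapped by immunoprecipitation of DNA (hMeDIP-seq), with 1 pooled peak list per group and thus no test between groups. Peaks were counted where their midpoint lay within 30 kb of a start site in GRCm38.p6. Near the 10 genes there were 99 peaks in VitC+ and 76 in VitC+/- femurs, so VitC+/- held 43.4% of both lists (95% exact interval 36.0 to 51.1, for counting error only), compared with 49.7% over all 21774 genes. The VitC+/- list was the longer one over the genome, with 399599 peaks against 371568. Fewer peaks were found in VitC+/- near 8 of the 10 genes, more near 1 (Dnajb9) and as many near 1 (Atf4). The same count over all genes is not given, so 8 of 10 has no background here.

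Creb3l1 had 15 peaks in VitC+ and 9 in VitC+/- femurs, and Xbp1 had 20 and 15. Sdf2l1 had 8 and 4, and Trib3 had 6 and 4, none of them within the Trib3 gene. No 5hmC peak of the femur lists overlapped the 300 bases around the start site of any of the 9 genes with a promoter entry. In MC3T3-E1 cells, a mouse calvarial pre-osteoblast line, 1 peak of the list with VitC overlapped the promoter of Trib3.

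**Figure D5:**
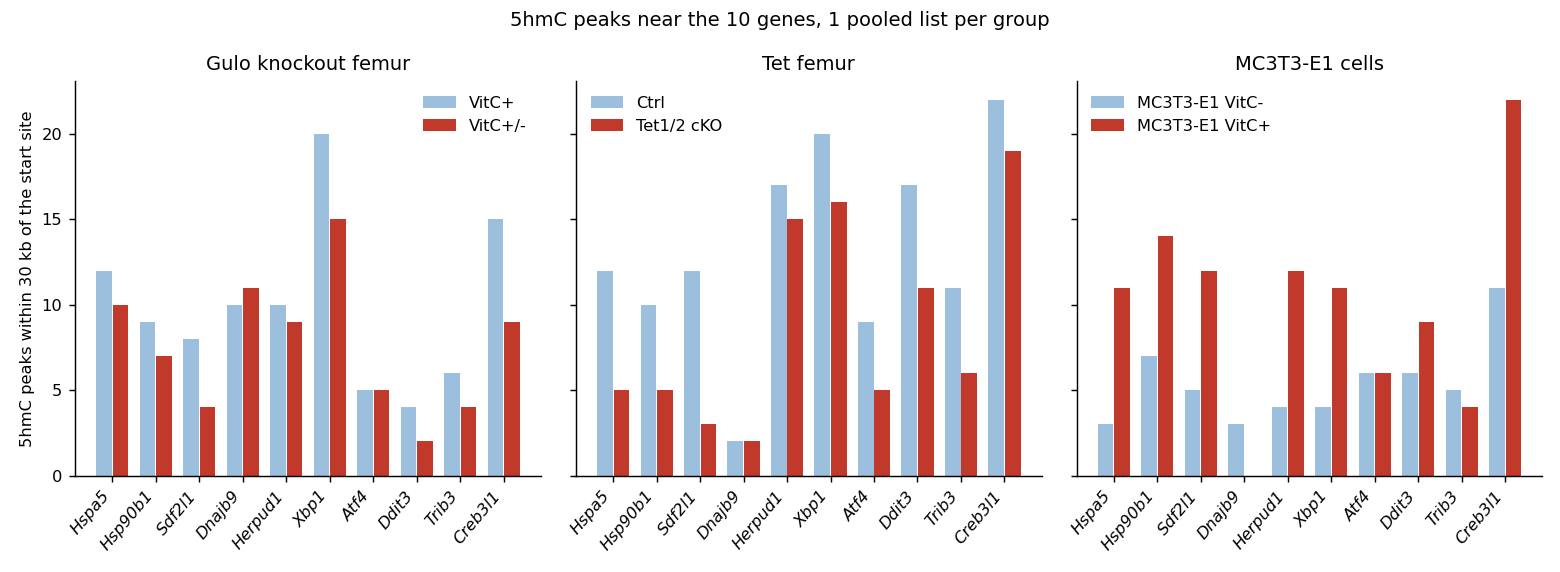
Number of 5hmC peaks with a midpoint within 30 kb of the start site of each of the 10 genes, as bars for the 2 pooled lists of Gulo femurs, of Tet femurs and of MC3T3-E1 cells. Bars of VitC+/- are below those of VitC+ for 8 genes and bars of Tet1/2 cKO below those of Ctrl for 9 genes. Bars of MC3T3-E1 cells with VitC are above those without for 7 genes. Such counts over all genes are not given. Over all genes, VitC+/- held 49.7%, Tet1/2 cKO 35.8% and MC3T3-E1 cells with VitC 54.8% of the peaks of both lists.

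Tet1/2 cKO femurs had 87 peaks near the 10 genes and Ctrl femurs 132, a share of 39.7% (interval 33.2 to 46.5) compared with 35.8% over all genes, and the whole lists held 146626 and 259326 peaks. Near Sdf2l1 there were 12 peaks in Ctrl and 3 in Tet1/2 cKO, near Hspa5 12 and 5, and near Creb3l1 22 and 19. In MC3T3-E1 cells there were 101 peaks with VitC and 54 without, a share of 65.2% (interval 57.1 to 72.6) compared with 54.8% over all genes. The list without VitC was the longer one over the genome, with 288862 peaks against 257696, so the list with VitC held 47.1% of all peaks. Creb3l1 had 22 with and 11 without VitC, Hspa5 11 and 3, and Dnajb9 0 and 3. Of the repressive histone marks in these cells, H3K27me3 had 34 peaks near the 10 genes with VitC and 28 without (54.8%, interval 41.7 to 67.5, all genes 54.0%), with a median of 2.5 per gene in both lists where that of all genes was 1. By covered length the share with VitC was lower, at 40.6%. Over the genome the H3K27me3 lists covered 144.7 Mb with VitC and 233.4 Mb without. H3K9me3 had 4 and 12 peaks (25.0%, interval 7.27 to 52.4, all genes 41.4%).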

How the data were processed

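Per the labels and the study's methods, reads were trimmed with Trim Galore 0.4.3.1, RNA-seq reads were aligned to mm10 with STAR 2.6.0b-1 and counted with featureCounts 1.6.3, and DNA reads were aligned with BWA 0.7.15.1. For the Gulo femurs the authors deposited RPKM per gene and library, whose gene models are not given in the sources used here. For the Tet femurs they deposited normalized counts, that is counts divided by the size factors of DESeq2, which here have the unit of a signal. Peaks were called by the authors on pooled replicates, as 1 list per group, with MACS2 (2.1.1.20160309.6 per the submitters' processing notes, an older version per the methods), and the deposited lists give a fold enrichment ratio and a -log10 q-value per peak.

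RPKM were divided by median-of-ratios factors (0.757 to 1.10) and log2(scaled RPKM + 0.5) was tested with limma 3.58.1 in R 4.3.3 over all 9 libraries, keeping genes that reached an RPKM of 1 in 3 or more libraries. Normalized counts were tested as log2(value + 1) over 12 libraries, for genes at 10 or more in at least 3. Adjusted p-values are Benjamini-Hochberg values over all genes tested, with a threshold of 0.05, and fold changes are on these log2 scales, which understate changes of low genes. The study describes the femur libraries as biological triplicates, and for the Gulo femurs as independent animals. For the Tet femurs the sources used here do not say this of each library, and p-values measure the spread between the samples. In each of the 12 Tet libraries 100% of values were whole reads within 0.1 reads. The tests by edgeR 4.0.16 and DESeq2 1.42.0 used the reads of 11 libraries, without Tet1 cKO replicate 3. The choice of these 11 did not rest on this share. Library depth was 7.56 to 47.3 M reads for Gulo and 28.6 to 49.8 M reads for Tet libraries. Intervals of peak shares are exact binomial and cover counting error only. The limma, edgeR and DESeq2 fits, the motif search and the peak counts were tested on simulated data. The recovery of library depth and of whole reads and the correlations were not.

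The 10 genes, the lists of the pathway, collagen and cell type genes, and the tests were chosen with earlier results of these data known. From each list, up to 4 genes per direction past the threshold in VitC+/- against VitC+ are named, and 5 collagen genes always. Alternatives were other pseudocounts, filters and scaling, fits of 2 groups, a replicate block, fits without each library, count tests, and for peaks a window of 10 kb, a -log10 q-value of at least 5 and covered length.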

Additional observations from a re-analysis of the deposited data

How the results depend on the processing

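Replicate numbers were not treated as pairs in the main fits. The r of same-numbered deviations was -0.19 to 0.46 for Gulo and -0.57 to 0.53 for Tet. Between libraries with different numbers it was -0.37 to 0.42 and -0.62 to 0.55. These ranges overlap and do not settle whether the numbers pair samples. A replicate block gave 774 genes in WT against VitC+, with Sdf2l1 higher and Creb3l1 lower (1 member each way). It gave 2 members higher (Creb3l1 added) and 3 lower (Xbp1 added) in VitC+/- against WT, and 0 genes for Tet1 cKO and Tet2 cKO. Without scaling, VitC+/- against VitC+ gave 876 genes and Herpud1 0.012, VitC+/- against WT 1 member lower, and WT against VitC+ 0.063 for Herpud1 and 0.019 for Trib3 (log2 fold changes here and below). A pseudocount of 0.1 or no filter left 0 members higher in VitC+/- against VitC+, and a fit of only 2 groups left 1 lower against WT and 0 genes for Tet2 cKO. By edgeR, Tet1 cKO had 0 and Tet2 cKO 1 genes, with Creb3l1 -0.24 and Sdf2l1 0.014 in Tet1 cKO, Atf4 0.0100 in Tet2 cKO and Dnajb9 -0.00062 in Tet1/2 cKO. By DESeq2, 15, 15 and 14 genes passed, with Creb3l1 -0.25, Sdf2l1 0.0072 and Xbp1 -0.00033 in Tet1 cKO and Atf4 0.0085 in Tet1/2 cKO. Both count tests ran without Tet1 cKO replicate 3, and limma without that library gave -0.24 for Creb3l1 in Tet1 cKO. Leaving out 1 library gave, for VitC+/- against VitC+, 487 to 1306 genes, 0 members higher, Hspa5 -0.42 to 0.090, Ddit3 -0.12 to 0.35, Creb3l1 -1.10 to 0.19 and P4ha1 -0.997 to 0.18. For VitC+/- against WT it gave 2274 to 4113 genes, 0 to 2 members higher, 1 to 3 lower, Herpud1 -0.28 to 0.016 and Atf4 -0.38 to 0.036. For WT against VitC+ it gave 0 to 604 genes, 0 to 1 members higher, Dnajb9 -0.12 to 0.21, Herpud1 -0.12 to 0.17, Ddit3 -0.52 to 0.00037, Trib3 -0.42 to 0.27 and Atf4 -0.33 to 0.10. It gave 0 to 4 genes for Tet1 cKO, with Hsp90b1 -0.092 to 0.12, Xbp1 -0.011 to 0.10, Creb3l1 -0.24 to 0.53 and Sdf2l1 -0.18 to 0.21, and 0 to 4 for Tet2 cKO, with Dnajb9 -0.22 to 0.49, Herpud1 -0.034 to 0.29, Atf4 -0.090 to 0.086, Creb3l1 -0.83 to 0.26 and Sdf2l1 -0.81 to 0.031. For Tet1/2 cKO, Hsp90b1 had -0.069 to 0.13, Dnajb9 -0.21 to 0.50, Herpud1 -0.30 to 0.024, Atf4 -0.13 to 0.15 and Xbp1 -0.23 to 0.00085. The Tet1/2 cKO share of 5hmC peaks was 48.2% in a 10 kb window and 32.0% at a -log10 q-value of at least 5, the H3K27me3 share 40.6% by covered length, and the H3K9me3 share 0 in 10 kb. No histone peak near the genes had a -log10 q-value of 5, and Trib3 was below the filter when only WT and VitC+ were fitted. The 604 genes came without WT replicate 1, the shallowest library. The cause of these changes was not tested.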
